A study of Mus musculus with 21 samples.

Results

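Ketone bodies and the branched-chain amino acids leucine, isoleucine and valine are minor fuels of the heart, and the 10 genes described here encode enzymes that oxidize them and the regulators of the committed step. They are *Oxct1*, *Bdh1* and *Acat1* for ketone bodies, *Bcat2*, *Bckdha*, *Bckdhb*, *Dbt*, *Bckdk* and *Ppm1k* for the branched-chain pathway up to its committed step, and *Ivd* for the next step of leucine breakdown. They were chosen by name, and all 10 were found among the 46517 Ensembl genes of the count table.

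Bulk RNA-sequencing, which measures the RNA of the whole tissue, was made from left ventricle of 4 control (Notch3 +/+) and 3 Notch3-/- mice of the c57bl/6j strain, aged 10 to 14 months, to ask which genes change in the heart when Notch3 is missing. The Notch3-/- mice carry a germline allele with *lacZ* inserted in the *Notch3* locus, so the gene is missing from every cell and from development on, and the sex of each mouse is not given. Each mouse gave 3 technical libraries, which were added up to give 1 value per mouse, with library totals of 3091461, 4638786, 4208205 and 3046326 for control mice 1 to 4 and of 3828763, 5167869 and 5086740 for Notch3-/- mice 1 to 3. *Notch3* itself was counted 174, 200, 245 and 185 times in controls 1 to 4 but 22, 36 and 25 times in Notch3-/- mice 1 to 3, with every Notch3-/- mouse far below every control mouse (log2 fold change -3.16, adjusted p = 0.00173 from edgeR with Benjamini-Hochberg adjustment).

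The liver makes ketone bodies from fatty acids and exports them, and heart muscle burns them. In cardiac mitochondria β-hydroxybutyrate is oxidized to acetoacetate, which receives coenzyme A from succinyl-CoA and is split into acetyl-CoA for the citric acid cycle. Branched-chain amino acids are transaminated to keto acids, which the branched-chain keto acid dehydrogenase complex (BCKDH) commits to oxidation, and a kinase switches this complex off while a phosphatase switches it on.

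Some hearts stood apart before any of these genes was compared. The 20 hepatocyte markers listed, led by *Alb* (albumin), summed to 60.3, 173, 19.1 and 37.1 CPM in control mice 1 to 4 and to 7253, 13629 and 161 CPM in Notch3-/- mice 1 to 3. CPM, the unit used here for comparing mice, is the count per 1000000 counts after scaling by TMM factors. All 20 markers were detected in some mouse and none was at 0 in every mouse, and *Alb* alone was counted 68, 385, 10 and 32 times in controls 1 to 4 but 6240, 8913 and 354 times in Notch3-/- mice 1 to 3. Notch3-/- mice 1 and 2 were thus far above the other 5 mice, and Notch3-/- mouse 3 lay within the control range of this sum. The hepatocyte score used in the fits (log2 CPM averaged over these markers) was 0.95, 2.26, 0.123 and 0.544 in controls 1 to 4 but 8.09, 9.21 and 2.4 in Notch3-/- mice 1 to 3, so that by the score Notch3-/- mouse 3 was just above control mouse 2. Liver expresses most of the genes described here, with *Oxct1* and *Bcat2* as the known exceptions that hepatocytes have little of, so estimates are also given without these 2 mice or with the hepatocyte score as a term in the fit. Without them a single Notch3-/- mouse is left and the spread comes from the control mice alone, so only the fold change of a gene is given and not its p.

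The tissue label was checked with the 12 cardiomyocyte markers, which were all detected and were led by *Ttn* (titin). They summed to 35262, 25785, 29540 and 33788 CPM in control mice 1 to 4 and to 34759, 23223 and 24860 CPM in Notch3-/- mice 1 to 3. The lowest sums were those of Notch3-/- mice 2 and 3, and Notch3-/- mouse 1 lay within the control range. The 6 vascular smooth muscle markers (all detected, led by *Smtn*) summed to 756, 595, 546 and 627 CPM in the controls and 693, 481 and 516 CPM in Notch3-/- mice 1 to 3. The sums of the 6 endothelial markers (led by *Kdr*) were 857, 707, 869 and 1067 against 970, 1044 and 992 CPM, and those of the 6 macrophage markers (led by *Lyz2*) were 438, 380, 453 and 434 against 470, 434 and 505 CPM. For the 6 fibroblast markers (led by *Dcn*) they were 1403, 1208, 1176 and 1185 against 1320, 1409 and 1702 CPM. *Dcn* itself went the other way, at 582, 508, 494 and 456 against 431, 395 and 452 CPM. At an unadjusted p lower than 0.05 in edgeR, 3 of the 6 were higher and 1 was lower, beside 7.34% and 3.05% of all genes tested. Adipocyte markers (6, led by *Cidec*) reached 0.988, 1.9, 0.235 and 11.7 against 6.01, 21 and 0.189 CPM, and skeletal muscle markers (6, led by *Tnnt3*) 1.98, 1.26, 3.06 and 0.668 against 1.64, 39.5 and 2.27 CPM, with Notch3-/- mouse 2 the highest for both. In whole tissue, fewer cells of a type and less RNA per cell cannot be told apart.

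In control hearts the ketone body and branched-chain genes spanned an 11.6-fold range of level per length. This was measured as TPM, counts per kilobase of annotated exon scaled to the same sum in each mouse, over the 46005 genes with an annotated length. *Oxct1*, which encodes the transferase that loads acetoacetate with coenzyme A, was the most abundant, with 882, 986, 963 and 1046 TPM in control mice 1 to 4. *Bckdha*, which encodes the alpha subunit of the decarboxylase of BCKDH, followed with 909, 902, 862 and 1021 TPM. The levels of these genes overlapped, and *Oxct1* was the higher in 3 of 4 control mice. *Acat1*, the mitochondrial thiolase that splits acetoacetyl-CoA, came next at 686 ± 17.8 TPM (SD, n = 4), below *Bckdha* and above every following gene in all 4 control mice.

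**Figure D1:**
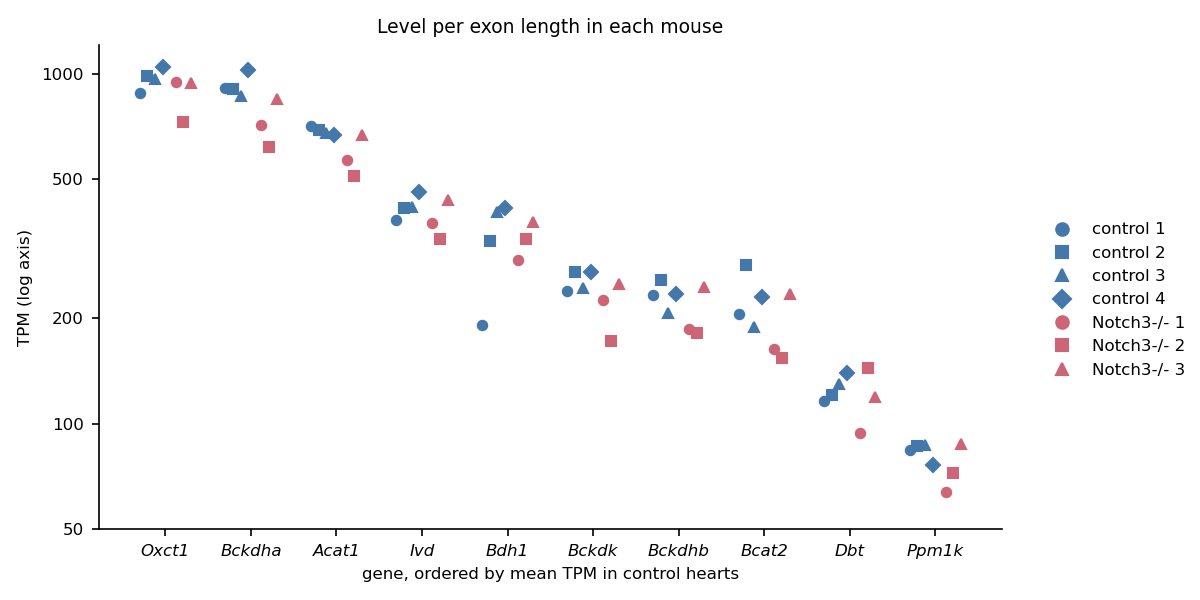
Level per exon length (TPM, log axis) of the 10 genes in each mouse, ordered by the mean of the control mice, with control mice in blue and Notch3-/- mice in red. Means in control hearts run from 969 TPM for *Oxct1* to 83.4 TPM for *Ppm1k*, and the order of the means is the same in both genotypes.

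*Ivd*, isovaleryl-CoA dehydrogenase of leucine breakdown, stood at 418 ± 31.7 TPM (SD, n = 4). *Bdh1*, the dehydrogenase that oxidizes β-hydroxybutyrate, was at 335 ± 102 TPM (SD, n = 4), the widest spread of the 10 genes in control hearts. A group of like levels followed: *Bckdk*, the kinase that inhibits BCKDH, at 256 ± 17.6 TPM, *Bckdhb*, the beta subunit of the decarboxylase, at 233 ± 21 TPM, and *Bcat2*, the mitochondrial transaminase, at 227 ± 41.4 TPM (SD, n = 4 each). Neighbours in the order from *Ivd* to *Bcat2* had overlapping control values. *Dbt*, the acyltransferase core of BCKDH, was lower at 127 ± 10.7 TPM, and *Ppm1k*, the phosphatase that activates BCKDH, was the lowest at 83.4 ± 4.86 TPM (SD, n = 4 each), both apart from their neighbours. Of the 9 neighbouring pairs, 5 overlapped in control mice. The subunits of BCKDH were therefore not at like RNA levels, with *Bckdha* above *Bckdhb* and *Bckdhb* above *Dbt* in every control mouse. With the longest annotated transcript as the length, 3 genes took another place: *Bcat2* went from place 8 to 5, *Bdh1* went from 5 to 6 and *Bckdk* from 6 to 8.

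None of the 10 genes differed between genotypes by the thresholds of the study, an FDR lower than 0.05 with a fold change of at least 1.5, in the quasi-likelihood test of edgeR, adjusted by Benjamini-Hochberg over the 14324 genes tested. Over all genes 0.00698% passed, a single gene, *Notch3*. DESeq2, the test of the study, called 597 of all genes and limma-voom on the 21 libraries 65, and edgeR without Notch3-/- mouse 3 called 936, but none of these called any of the 10 genes. At an unadjusted p lower than 0.05 in edgeR, 2 of 10 genes were lower in Notch3-/- hearts against 3.05% of all genes tested, and 0 of 10 were higher against 7.34%. In 3 of 10 genes every Notch3-/- mouse was below every control mouse, a pattern that 3.96% of all genes tested showed, and in 0 of 10 genes every Notch3-/- mouse was above, against 4.57%. The estimated log2 fold change was below 0 for 9 of 10 genes and for 50.4% of all genes tested, with a median of -0.16 over the 10 genes and 0.00 over all genes tested. The 12 cardiomyocyte markers had a median of -0.24.

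**Figure D2:**
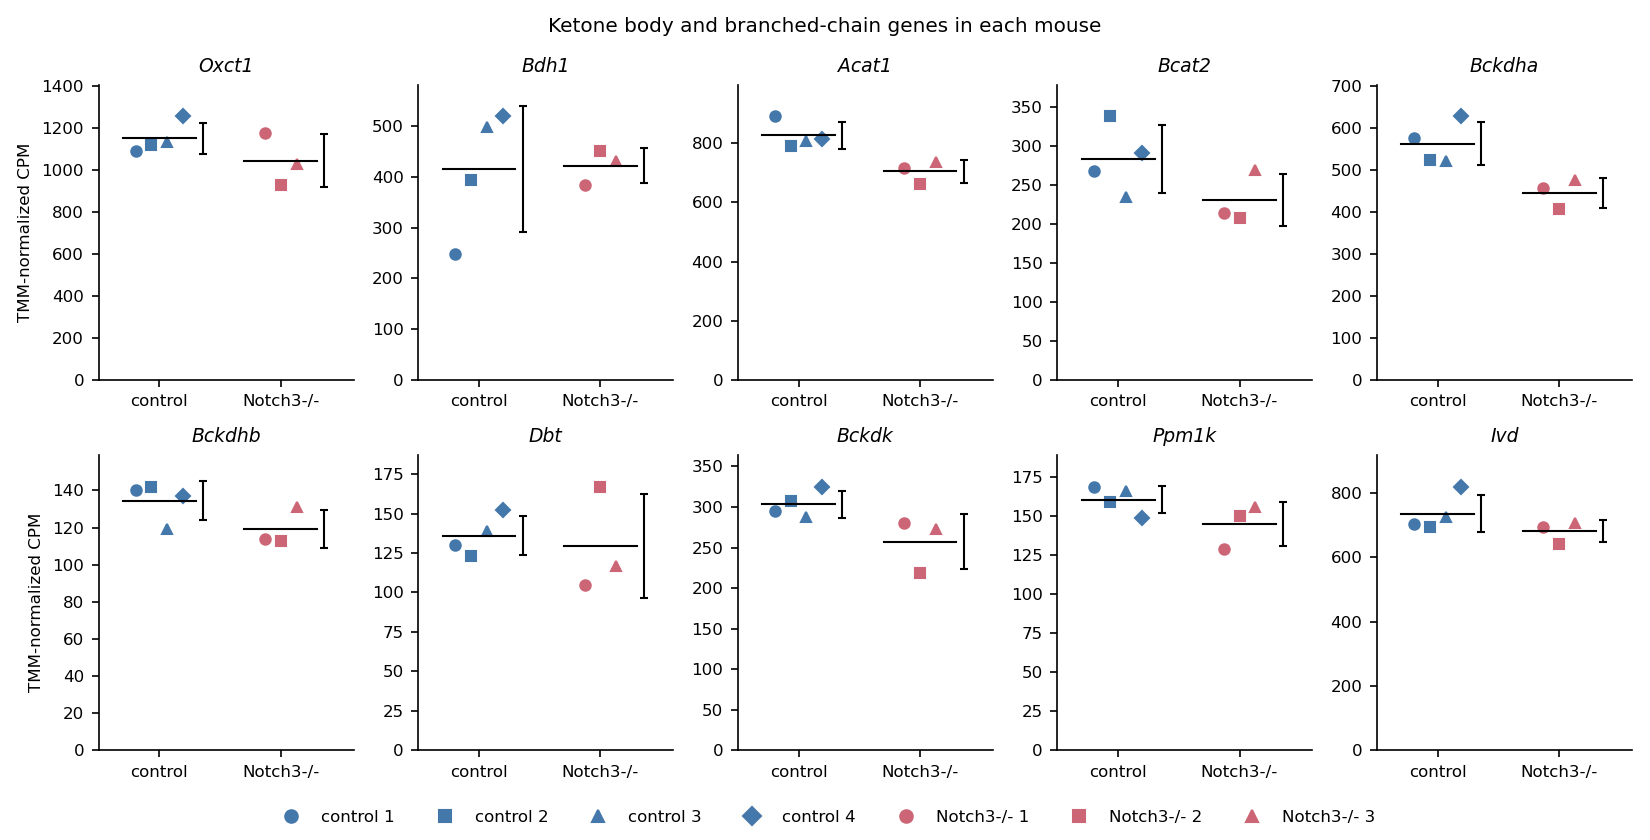
TMM-normalized CPM of each of the 10 genes in control (blue) and Notch3-/- (red) mice, 1 point a mouse, with the mean as a line and the SD as a bar, and axes from 0. The groups do not overlap for *Acat1*, *Bckdha* and *Bckdk*, and Notch3-/- mouse 2 is the lowest of the 3 Notch3-/- mice for all 3.

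Among the ketone body genes, *Oxct1* (ENSMUSG00000022186; chromosome 15, 4026383 to 4155344, plus strand, GENCODE vM21 on GRCm38) had 1091, 1116, 1133 and 1255 CPM in control mice 1 to 4 and 1176, 927 and 1026 CPM in Notch3-/- mice 1 to 3. Notch3-/- mice 2 and 3 were below all control mice, and Notch3-/- mouse 1 was above 3 of 4 of them. The log2 fold change was -0.14 (SE 0.11, 95% confidence interval -0.38 to 0.10), with an adjusted p of 0.687 from edgeR with Benjamini-Hochberg adjustment. It was -0.23 without Notch3-/- mouse 1 and -0.06 without Notch3-/- mouse 2. A non-coding gene on the opposite strand, *BC037032*, shares 467 of the 3701 exon bases of *Oxct1* and had 2798 counts over the 7 mice against 31317 for *Oxct1*. How strand was used in counting is not given in the sources used here, so the reads of genes that share exons cannot be told apart.

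*Bdh1* (ENSMUSG00000046598; chromosome 16, 31422280 to 31458901, plus strand) had 249, 395, 498 and 520 CPM in control mice and 384, 451 and 431 CPM in Notch3-/- mice. The Notch3-/- mice lay inside the control range, in which control mouse 1 was far below the other controls. The log2 fold change was 0.02 (95% confidence interval -0.47 to 0.52), and it was -0.16 without control mouse 1. The opposite-strand gene *Gm15743* shares 533 of 3888 exon bases with *Bdh1* and was also lowest in control mouse 1, at 37.5 CPM against 55.0, 67.8 and 79.5 CPM in control mice 2 to 4.

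*Acat1* (ENSMUSG00000032047; chromosome 9, 53580522 to 53610382, minus strand), whose enzyme also acts at the end of isoleucine breakdown, had 892, 791, 809 and 815 CPM in control mice and 716, 662 and 738 CPM in Notch3-/- mice. All 3 Notch3-/- mice were below all 4 control mice, with a log2 fold change of -0.23 (SE 0.09, 95% confidence interval -0.44 to -0.02), with p = 0.0337 before and 0.437 after Benjamini-Hochberg adjustment in edgeR. It was -0.16 for Notch3-/- mouse 3 alone against the control mice and -0.13 (edgeR p = 0.507) with the hepatocyte score as a term.

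In the branched-chain pathway, *Bcat2* (ENSMUSG00000030826; chromosome 7, 45570153 to 45589711, plus strand) had 268, 338, 234 and 291 CPM in control mice and 214, 208 and 269 CPM in Notch3-/- mice. Notch3-/- mice 1 and 2 were below every control mouse, and Notch3-/- mouse 3 lay within the control range. Its log2 fold change of -0.30 had a 95% confidence interval of -0.64 to 0.05, and the adjusted p was 0.537 from edgeR with Benjamini-Hochberg adjustment. The estimate was -0.07 for Notch3-/- mouse 3 alone, -0.13 with the hepatocyte score as a term and -0.01 in technical library 1 alone, against -0.46 and -0.36 in technical libraries 2 and 3.

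*Bckdha* (ENSMUSG00000060376; chromosome 7, 25629946 to 25658981, minus strand) had the lowest estimate of the 10 genes, with 577, 524, 521 and 628 CPM in control mice and 456, 406 and 475 CPM in Notch3-/- mice. All 3 Notch3-/- mice were again below all 4 control mice, with a log2 fold change of -0.34 (SE 0.11, 95% confidence interval -0.58 to -0.09), with p = 0.0127 before and 0.322 after Benjamini-Hochberg adjustment in edgeR. For Notch3-/- mouse 3 alone against the control mice it was -0.24, and with the hepatocyte score as a term it was -0.18 (edgeR p = 0.381). The protein-coding gene *B3gnt8* on the opposite strand shares 1171 of the 1899 exon bases of *Bckdha*, and had 195 counts over the 7 mice against 14441 for *Bckdha*.

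The other BCKDH subunits gave smaller estimates. *Bckdhb* (ENSMUSG00000032263; chromosome 9, 83925145 to 84124240, plus strand) had 140, 142, 119 and 137 CPM in control mice and 114, 113 and 131 CPM in Notch3-/- mice, so that Notch3-/- mouse 3 was above control mouse 3 and the groups overlapped. Its log2 fold change was -0.17 (95% confidence interval -0.46 to 0.12), or -0.04 for Notch3-/- mouse 3 alone and -0.06 with the hepatocyte score. *Dbt* (ENSMUSG00000000340; chromosome 3, 116513070 to 116549981, plus strand) had 130, 123, 139 and 152 CPM in control mice and 105, 167 and 117 CPM in Notch3-/- mice. Notch3-/- mouse 2 was above and Notch3-/- mice 1 and 3 were below all control mice, and the log2 fold change of -0.07 (95% confidence interval -0.45 to 0.32) turned to 0.06 without Notch3-/- mouse 1 and was -0.29 without Notch3-/- mouse 2, -0.21 for Notch3-/- mouse 3 alone and -0.26 with the hepatocyte score.

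Of the regulators, *Bckdk* (ENSMUSG00000030802; chromosome 7, 127904082 to 127910221, plus strand) had 295, 307, 287 and 325 CPM in control mice and 280, 219 and 273 CPM in Notch3-/- mice. The groups did not overlap, though Notch3-/- mouse 1 and control mouse 3 were close. The log2 fold change was -0.24 (95% confidence interval -0.51 to 0.03), with an adjusted p of 0.525 from edgeR with Benjamini-Hochberg adjustment, and it was -0.13 without Notch3-/- mouse 2, -0.15 for Notch3-/- mouse 3 alone and -0.10 with the hepatocyte score as a term. *Ppm1k* (ENSMUSG00000037826; chromosome 6, 57506502 to 57535468, minus strand) had 169, 159, 166 and 149 CPM in control mice and 129, 150 and 156 CPM in Notch3-/- mice. Only Notch3-/- mouse 1 was below all control mice, and the log2 fold change was -0.15 (95% confidence interval -0.42 to 0.13), or -0.07 without Notch3-/- mouse 1 and -0.05 both for Notch3-/- mouse 3 alone and with the hepatocyte score.

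*Ivd* (ENSMUSG00000027332; chromosome 2, 118861954 to 118882909, plus strand) had 704, 696, 726 and 820 CPM in control mice and 694, 642 and 708 CPM in Notch3-/- mice. The groups overlapped, with Notch3-/- mice 1 and 2 below every control mouse and Notch3-/- mouse 3 within the control range. Its log2 fold change was -0.11 (95% confidence interval -0.33 to 0.11), which became -0.06 for Notch3-/- mouse 3 alone and 0.00 with the hepatocyte score as a term. For *Oxct1* the same fits gave -0.16 and -0.11, and for *Bdh1* 0.05 and 0.13. The 95% confidence interval included 0 for 8 of the 10 genes, and whether these are unchanged was not tested.

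**Figure D3:**
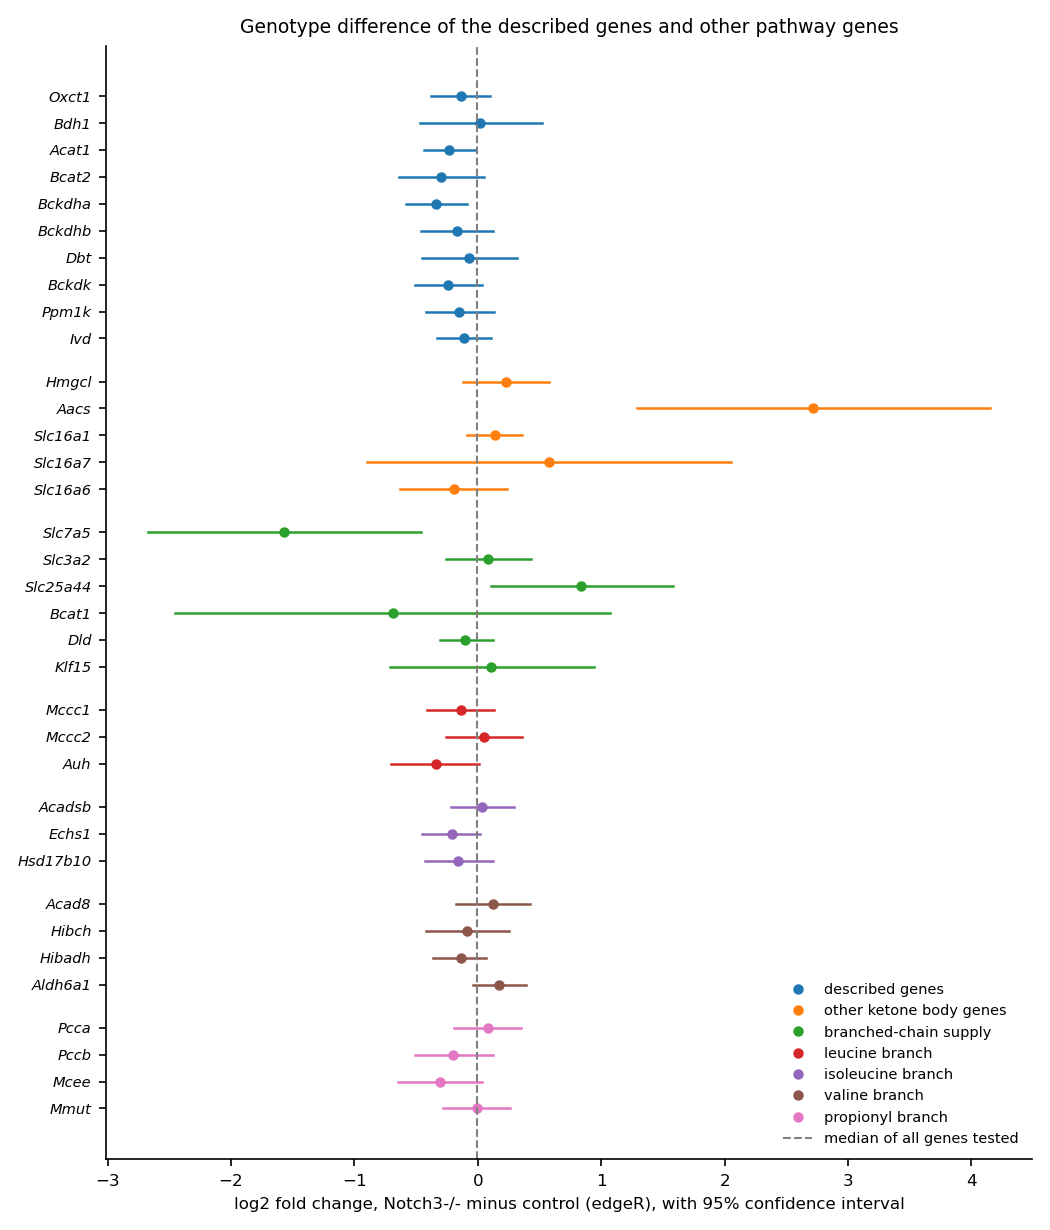
Log2 fold change (Notch3-/- minus control, edgeR) with its 95% confidence interval for the 10 described genes and the 25 other tested genes of both pathways, with the median of all 14324 genes tested as a dashed line. The 10 genes lie between -0.34 and 0.02, while *Aacs* stands at 2.72 with a wide interval.

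Balance within the pathway was read from ratios of gene pairs in the same mouse. The log2 ratio of the kinase to the phosphatase, *Bckdk* to *Ppm1k*, was 0.80, 0.95, 0.79 and 1.13 in controls 1 to 4 but 1.11, 0.55 and 0.81 in Notch3-/- mice 1 to 3. Notch3-/- mouse 2 was below every control mouse and the others lay in the control range, and the means differed by -0.09 (two-sided exact permutation p = 0.629, adjusted p = 0.754 over the 6 ratios by Benjamini-Hochberg). The log2 ratio of *Bckdha* to *Bckdhb* was 2.04, 1.88, 2.13 and 2.20 in controls 1 to 4 but 2.00, 1.84 and 1.86 in Notch3-/- mice 1 to 3. Notch3-/- mice 2 and 3 were below every control mouse, and the difference of -0.16 gave the smallest p of the 6 ratios (two-sided exact permutation p = 0.114, adjusted p = 0.686).

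The log2 ratio of *Dbt* to *Bckdha* was -2.15, -2.08, -1.91 and -2.04 in controls 1 to 4 but -2.11, -1.28 and -2.01 in Notch3-/- mice 1 to 3. Notch3-/- mouse 2 stood apart from the other 6 mice, and the difference of 0.24 (two-sided exact permutation p = 0.371) was -0.02 without it. The ratios of *Bdh1* to *Oxct1*, *Acat1* to *Oxct1* and *Bcat2* to *Bckdha* differed by 0.22, -0.08 and 0.04 on the log2 scale, each with overlapping groups. That of *Bdh1* to *Oxct1* was 0.02 without control mouse 1 and 0.38 without Notch3-/- mouse 1. None of the 6 ratios passed, but 0.0286 is the smallest p that 35 divisions of 7 mice into 4 and 3 allow, and a lone ratio at that p would have an adjusted p of 0.171, so that a change in a single ratio could not have passed.

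Between libraries of the same mouse, values of the more abundant genes were lower in the deeper libraries. Depth differed between the genotypes, with a median of 1196276 counts per library in control and 1583662 in Notch3-/- mice, and log2 totals per mouse that were 0.34 higher in Notch3-/- mice on average. For each doubling of the library total within a mouse, log2 CPM differed by -0.49 for *Bckdha*, -0.34 for *Oxct1* and *Bdh1*, -0.29 for *Acat1* and -0.20 for *Bckdk* and *Ivd*, and by 0.16 for *Dbt* and 0.25 for *Ppm1k*. The slope was below 0 for 8 of 10 genes, a count given without the share over all genes. Since the genes differ in slope, some ratios also moved with depth: per doubling of the library total, the log2 ratio of *Dbt* to *Bckdha* differed by 0.65, that of *Bckdha* to *Bckdhb* by -0.47 and that of *Bckdk* to *Ppm1k* by -0.45. For *Bcat2* to *Bckdha* it was 0.23, and for *Acat1* to *Oxct1* and *Bdh1* to *Oxct1* it was 0.04 and -0.01. The part of depth in the genotype differences of these ratios was not tested. The 156 genes of nearly the same mean CPM as *Bckdha* had a median slope of -0.20, and the 62 such genes for *Oxct1* a median of -0.49. For *Acat1*, *Ivd* and *Bdh1* such genes had medians of -0.38, -0.37 and -0.18. The medians were -0.10 for *Bckdk*, -0.07 for *Bcat2*, -0.02 for *Ppm1k*, -0.01 for *Dbt* and 0.00 for *Bckdhb*. In the largest library *Oxct1* reached 0.655 and *Bckdha* 0.569 counts per exon base, while the highest value of any gene of at least 200 exon bases in any library was 1.97.

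**Figure D4:**
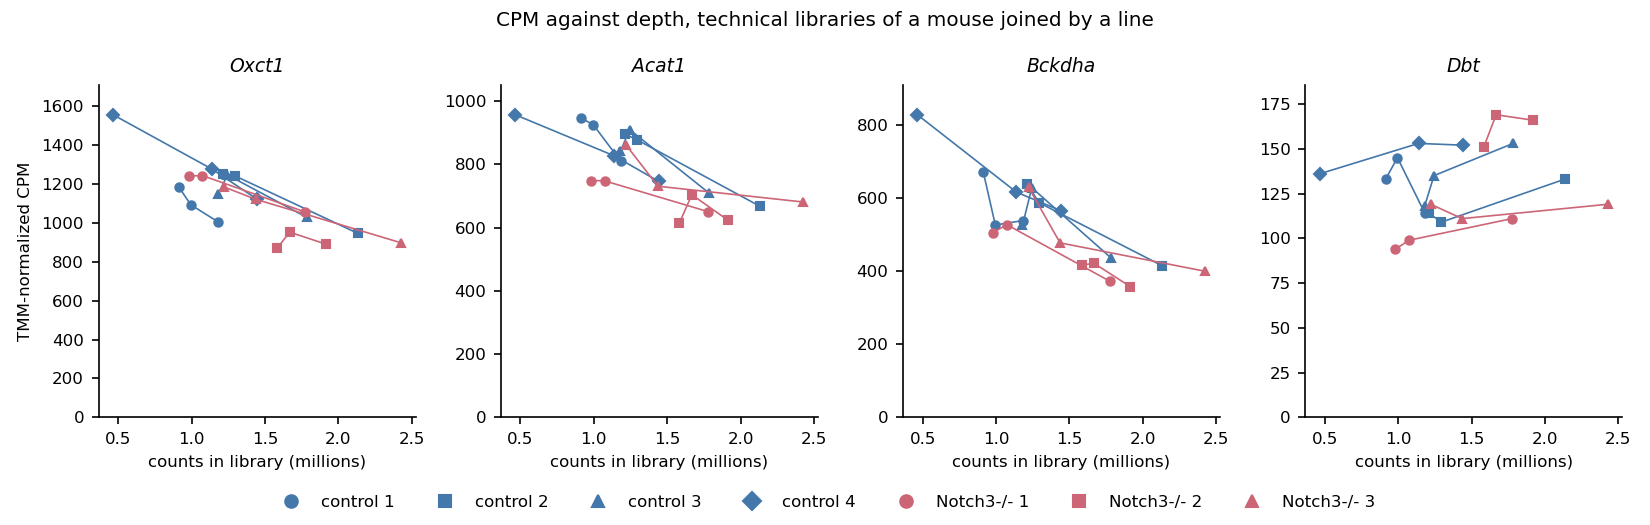
TMM-normalized CPM of *Oxct1*, *Acat1*, *Bckdha* and *Dbt* in each technical library against the counts in that library, with the 3 libraries of a mouse joined by a line (control blue, Notch3-/- red). From the smallest to the largest library of a mouse, CPM of *Bckdha* goes from 829 to 566 in control mouse 4 and from 630 to 400 in Notch3-/- mouse 3. *Dbt* shows no such slope. These mice hold the smallest and the largest of all libraries.

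With the log2 library total as a term in limma-voom on the 21 libraries, an alternative chosen after seeing the data, the log2 fold change was -0.17 for *Bckdha*, -0.13 for *Acat1*, -0.18 for *Bckdk* and -0.04 for *Oxct1*. In limma-voom p was 0.049 before and 0.419 after Benjamini-Hochberg adjustment for *Bckdha*, 0.0477 and 0.413 for *Acat1*, and 0.0826 and 0.509 for *Bckdk*. Without that term limma-voom gave -0.34, -0.24, -0.26 and -0.16 for these 4 genes. The estimates for *Bckdha* and *Acat1* were thus about the same with depth in the fit as with the hepatocyte score in the edgeR fit. The p of these fits cannot be compared, since limma-voom used the 21 libraries and edgeR the sums per mouse. The part of depth in the estimates was not tested further. The spread between single technical libraries (SD of log2 CPM within a mouse) exceeded the spread between mouse means of a genotype for 8 of 10 genes, for example 0.27 against 0.15 for *Bckdha*. It was smaller for *Bdh1*, at 0.20 against 0.40, and *Dbt*, at 0.13 against 0.24. Each mouse mean averages 3 libraries, which lowers the technical part of its spread, so these are unlike measures. No share over all genes is given beside this count. For *Bdh1* the libraries of control mouse 1, at 266, 234 and 244 CPM, were below every library of the other mice. For *Dbt* those of Notch3-/- mouse 2, at 166, 169 and 151 CPM, overlapped those of control mouse 4, at 136, 153 and 152 CPM.

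The wider pathways were covered by 26 other genes in 6 lists, of which 25 were tested and none was called by edgeR. At an unadjusted p lower than 0.05, 2 of 25 were higher and 1 of 25 lower, beside 7.34% and 3.05% of all genes tested, and the median log2 fold change was -0.01. The lower gene was *Slc7a5*, which passed the expression filter only through the control mice, so no weight is put on that count. *Aacs*, acetoacetyl-CoA synthetase of the cytosol, had 11.2, 16.2, 12.9 and 16.4 CPM in control mice and 56.8, 206 and 18.2 CPM in Notch3-/- mice, all above the highest control mouse and highest in Notch3-/- mice 1 and 2, as for the hepatocyte markers. The log2 fold change was 2.72 (SE 0.64, adjusted p = 0.165 from edgeR with Benjamini-Hochberg adjustment), and 0.35 for Notch3-/- mouse 3 alone and -0.29 with the hepatocyte score as a term. DESeq2 called it, with an adjusted p of 0.0229 (Benjamini-Hochberg). *Slc25a44*, the mitochondrial carrier of branched-chain amino acids, had 37.2, 52.7, 37.4 and 36.1 CPM in control mice and 61.5, 120 and 39.3 CPM in Notch3-/- mice. Notch3-/- mice 1 and 2 were again above every control mouse, and the log2 fold change of 0.84 (SE 0.33) was -0.06 for Notch3-/- mouse 3 alone and -0.43 with the hepatocyte score. Both genes thus turned direction with the score in the fit.

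**Figure D5:**
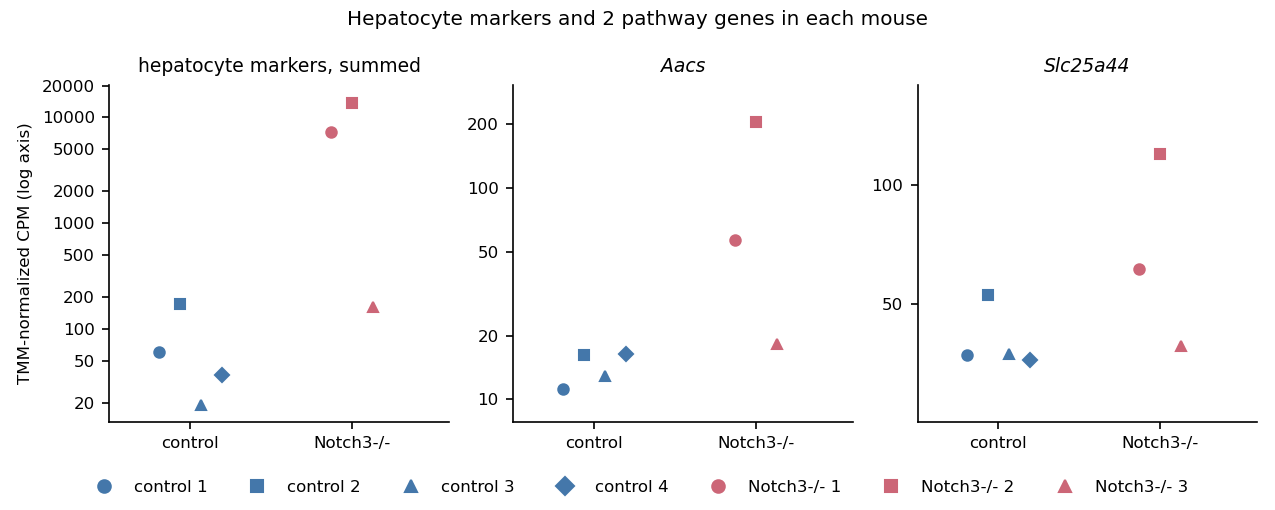
Summed CPM of the 20 hepatocyte markers and CPM of *Aacs* and *Slc25a44* in each mouse (log axes; control blue, Notch3-/- red). Notch3-/- mice 1 and 2 are highest in all 3 panels, and Notch3-/- mouse 3 lies within the control range except for *Aacs*, where its 18.2 CPM is just above the highest control value of 16.4 CPM.

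*Slc7a5*, a plasma membrane importer of large neutral amino acids, was rarely detected, counted 7, 37, 16 and 12 times in controls 1 to 4 but 4, 9 and 8 times in Notch3-/- mice 1 to 3. Its CPM in every Notch3-/- mouse was below every control mouse, and the log2 fold change was -1.57 (SE 0.49, adjusted p = 0.293 from edgeR with Benjamini-Hochberg adjustment). *Slc7a5* passed the expression filter only through the control mice, where it was higher, and was not tested without control mouse 2 or control mouse 3. No weight is put on its difference or its p for this reason. *Klf15*, a transcription factor known to drive branched-chain amino acid breakdown in muscle, had 80.3, 162, 61.9 and 66.8 CPM in control mice and 89.4, 148 and 64.5 CPM in Notch3-/- mice. Control mouse 2 and Notch3-/- mouse 2 were high, the groups overlapped, and the log2 fold change was 0.11 (95% confidence interval -0.71 to 0.94). It went to -0.28 without Notch3-/- mouse 2, to 0.52 without control mouse 2, to -0.53 for Notch3-/- mouse 3 alone and to -1.0 with the hepatocyte score as a term (p = 0.0281 before and 0.999 after Benjamini-Hochberg adjustment in edgeR). *Bdh2*, a cytosolic relative of *Bdh1*, did not pass the expression filter, being counted 3, 3, 5 and 0 times in controls 1 to 4 but 15, 31 and 1 times in Notch3-/- mice 1 to 3.

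The 14 genes of the leucine, isoleucine, valine and propionyl-CoA branches after BCKDH were all tested, 9 with an estimate below 0 and 5 above, with a median log2 fold change of -0.11 and none at an unadjusted p lower than 0.05 in edgeR. In the leucine branch *Auh*, a hydratase, had the largest estimate at -0.34 (SE 0.16), with 124, 152, 149 and 158 CPM in control mice and 110, 95.7 and 139 CPM in Notch3-/- mice. That estimate was -0.07 for Notch3-/- mouse 3 alone and 0.01 with the hepatocyte score as a term. *Echs1*, a mitochondrial hydratase also used in fatty acid oxidation, led the isoleucine branch at -0.21 (SE 0.11), with 500, 484, 475 and 515 CPM in control mice and 466, 373 and 438 CPM in Notch3-/- mice. The *Echs1* estimate was -0.28 without Notch3-/- mouse 1, -0.13 without Notch3-/- mouse 2 and -0.13 with the hepatocyte score as a term. In technical libraries 1 to 3 alone it was -0.05, -0.30 and -0.32. *Mcee*, the epimerase of methylmalonyl-CoA, led the propionyl-CoA branch at -0.31 (SE 0.15), with 123, 93.8, 103 and 86.5 CPM in control mice and 86.4, 82.9 and 76.4 CPM in Notch3-/- mice. Notch3-/- mouse 1 and control mouse 4 were nearly level. The *Mcee* estimate was further from 0, at -0.41, both for Notch3-/- mouse 3 alone and with the hepatocyte score as a term. *Aldh6a1* of the valine branch went the other way at 0.17 (SE 0.10), with 451, 444, 427 and 405 CPM in control mice and 475, 524 and 463 CPM in Notch3-/- mice. The *Aldh6a1* estimate was 0.10 for Notch3-/- mouse 3 alone and 0.05 with the hepatocyte score as a term. Every Notch3-/- mouse was below every control mouse for 3 of the 14 genes, *Echs1*, *Mcee* and *Hibadh*, and above for 1 of 14, *Aldh6a1*, against 3.96% and 4.57% of all genes tested. *Auh* overlapped through Notch3-/- mouse 3.

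Promoter sequence was examined because *Klf15* and the estrogen-related receptors are known regulators of these pathways in muscle. RefSeq windows from 250 bases before to 50 bases after a start site (GRCm38.p6) were given for 8 of the 10 genes, 11 windows in all, and not for *Acat1* and *Dbt*. TNAAGGTCA, an element bound by estrogen-related receptors, was in none of the 11 windows on either strand and in 1.28% of all 32851 windows. CCACCC, the core of KLF sites, was in 4 of the 11 windows, of *Ivd*, *Bcat2*, *Bckdhb* and *Bdh1*, and in 31.5% of all windows. The stretches of *Ivd*, *Bcat2* and *Bckdhb* are given as those nearest the annotated starts, with the match in capitals (on the opposite strand in *Bcat2* and *Bckdhb*, where it reads GGGTGG): *Ivd* at chr2:118861906-118861965, *Bcat2* at chr7:45570121-45570153 and *Bckdhb* at chr9:83924922-83924981, all on the plus strand.
Ivd: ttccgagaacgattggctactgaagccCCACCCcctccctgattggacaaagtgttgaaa
Bcat2: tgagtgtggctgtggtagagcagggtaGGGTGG
Bckdhb: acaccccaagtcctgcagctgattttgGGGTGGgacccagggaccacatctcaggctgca
Counted from the RefSeq start of its window, the match begins 61 bases before in *Ivd*, 5 in *Bcat2*, where it ends on the start base, and 188 in *Bckdhb*. Those of *Bdh1* begin 233 and 227 bases before. Except in *Bcat2*, these RefSeq starts differ from the gene starts given above. The *Bdh1* window with the matches, chr16:31428503-31428802, lies inside the gene as given above. The log2 fold changes of the 4 genes were -0.11, -0.30, -0.17 and 0.02 in the same order, and *Bckdha*, with the lowest estimate of the 10 genes, had neither motif in its window. A match is a description of the sequence and shows no binding.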

How the data were processed

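Frozen left ventricle of 4 control and 3 Notch3-/- mice was sequenced as 3 technical libraries per mouse. The values are raw counts per gene and library as deposited by the authors, whose processing notes name mm10 and CASAVA; the aligner, counter, strand setting and treatment of duplicate reads are not given in the sources used here. The table held 46517 Ensembl genes and 92 ERCC sequences, which had 34 counts in all and were left out. Symbols and exon lengths came from GENCODE vM21, which lists 46005 of these genes, and genes were matched by symbol. Beside the 10 genes and *Notch3*, the text names *Klf15*, each other pathway gene at an unadjusted p lower than 0.05, or else the largest estimate of its list, genes that share exons with the 10, branch genes whose groups do not overlap, and the most abundant marker of each list. It also names *Bdh2*, the only listed pathway gene that did not pass the expression filter. Counts of the 3 libraries of a mouse were added, giving 3046326 to 5167869 counts per mouse.

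Genes kept by filterByExpr were fitted with edgeR 4.0.16 (R 4.3.3; TMM factors, quasi-likelihood F test, Benjamini-Hochberg over all 14324 genes tested), with the call thresholds of the study (FDR 0.05, fold 1.5). TPM used the union of annotated exons. Ratios of 2 genes in a mouse, with 0.5 added to each count, were compared over all 35 divisions of the mice (exact permutation, two-sided), adjusted over the 6 ratios. Alternatives were DESeq2 1.42.0, limma-voom (limma 3.58.1) on the 21 libraries with the mouse as a random effect, other filters and factors, subsets of mice or libraries, and hepatocyte and depth terms. The scripts were tested on simulated data, where limma-voom on the libraries called more unchanged genes than edgeR or DESeq2 did. In that simulation the libraries of a mouse differed only by counting noise and depth. Libraries differed more in these data, so this order of the tests need not hold for them. The 10 genes and all gene lists were chosen with earlier results of these data known.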

Additional observations from a re-analysis of the deposited data

Results flagged for a closer look

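In 33 measures the values of the 4 control mice were searched for a value apart from the others with the Dixon ratio (gap over range, at the 95% critical value for 4 values), which picks out about 1 in 20 groups by chance. It picked out 4. These were control mouse 2 for CPM of *Slc25a44* (0.92) and for the log2 ratio of *Bcat2* to *Bckdha* (0.912), control mouse 1 for the summed CPM of the fibroblast markers (0.859), and control mouse 4 for the summed CPM of the adipocyte markers (0.855). No mouse was removed for this, and the cause was not tested.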

How the results depend on the processing

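None of the 10 genes was called in any of 19 alternatives, and 10 of their 190 alternative estimates changed sign. *Bckdha* ran from -0.48 to -0.17 and was at an unadjusted p lower than 0.05 in 15 of 19, *Acat1* from -0.29 to -0.13 and in 8 of 19, and *Bckdk* from -0.34 to -0.10 and in 2 of 19, the fit of the lone Notch3-/- mouse being among the 19 without such a p.

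With 1 mouse left out in turn, the number of genes lower at an unadjusted p lower than 0.05 was 1 to 2 of the 10 (2 with all mice). Beside this, 2.1% to 4.66% of all genes tested were lower (3.05% with all mice). The number of the 10 with every Notch3-/- mouse below every control was 3 to 6 (3 with all mice). The 6 came without Notch3-/- mouse 3, where 10.7% of all genes tested showed this pattern against 3.96% with all mice. Over all genes the number called was 1 to 936 (1 with all mice; 936 without Notch3-/- mouse 3), lower 302 to 700 (437) and higher 629 to 1748 (1051). The log2 fold change ranged from -0.16 to 0.15 for *Bdh1*, from -0.29 to 0.06 for *Dbt* and from -0.28 to 0.52 for *Klf15*. The log2 ratio ranged from -0.23 to 0.05 for *Bckdk* to *Ppm1k*, from -0.02 to 0.40 for *Dbt* to *Bckdha*, from -0.03 to 0.17 for *Bcat2* to *Bckdha*, from -0.13 to -0.01 for *Acat1* to *Oxct1* and from 0.02 to 0.38 for *Bdh1* to *Oxct1*. Without Notch3-/- mouse 3, *Aacs* (3.20) and *Slc25a44* (1.14) passed in edgeR with Benjamini-Hochberg adjustment. Their estimates were 1.38 and 0.29 without Notch3-/- mouse 2, and neither passed there.

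With the 5 mice whose labels begin with k, 0 genes were called. At an unadjusted p lower than 0.05 in edgeR, 1 of the 10 and 204 of all genes (1.37%) were lower. Of the 10, 5 were below every control, as were 11.2% of all genes tested. *Notch3* was the call lost, at -3.29 with an adjusted p of 0.206 (edgeR, Benjamini-Hochberg). *Bdh1* was then at -0.28 and the ratio of *Bdh1* to *Oxct1* at -0.07. *Klf15* was at 0.64, *Dbt* at -0.17, *Bckdhb* at -0.10, and *Bcat2* and *Ivd* both at -0.19. The log2 ratio differed by -0.26 for *Bckdha* to *Bckdhb*, by 0.17 for *Bcat2* to *Bckdha* and by 0.00 for *Acat1* to *Oxct1*. With Notch3-/- mouse 3 alone, 5 of the 10 were below every control (21.2% of all genes tested). At an unadjusted p lower than 0.05, whose spread is that of the controls alone, 0 of the 10 and 419 of all genes (2.72%) were lower and 375 genes were higher, and no weight is put on these counts. The fold changes were -0.06 for *Slc25a44* and -0.53 for *Klf15*. With the hepatocyte score, 0 genes were called, with *Notch3* at -3.42 and an adjusted p of 0.0972 (edgeR, Benjamini-Hochberg), 0 of the 10 and 356 of all genes (2.49%) were lower and 267 genes were higher, with *Aacs* at -0.29, *Slc25a44* at -0.43, *Klf15* at -1.0 and *Auh* at 0.01.

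DESeq2 called 597 genes, *Aacs* among them (adjusted p = 0.0229, Benjamini-Hochberg), and edgeR on every gene with a count called 639, *Aacs* again among them. At an unadjusted p lower than 0.05 that fit had 1771 genes higher. On the 21 libraries limma-voom called 65 genes, and 62 with the technical replicate number as a replicate block. With the log2 library total as a term, chosen after seeing the data, it called 11.

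Technical libraries 1, 2 and 3 alone called 48, 39 and 77 genes. At an unadjusted p lower than 0.05 library 1 had 228 genes lower and 516 higher, with *Bckdhb* at 0.10 and *Aldh6a1* at -0.08. Library 2 had *Bdh1* at -0.05, *Dbt* at 0.03 and *Ppm1k* at 0.04. Of the 10 genes, 0, 3 and 0 were lower at that p in libraries 1, 2 and 3, beside 2.03%, 3.64% and 2.66% of all genes tested, and 0, 3 and 0 were below every control, beside 2.88%, 4.28% and 3.32% of all genes tested. The cause of these differences was not tested.

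RNA level says nothing of the phosphorylation that sets BCKDH activity, of enzyme amounts or of fuel use, none of which was measured. With 3 Notch3-/- mice, of which 2 had high hepatocyte markers, genotype and this signal cannot be told apart with all mice in the fit, and sequencing depth also differed between the groups.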
